A study of Saccharomyces cerevisiae with 12 samples.

Results

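The 31 chaperone genes described here encode the folding machines of the budding yeast cytosol and mitochondrial matrix and the proteins that steer them. They were taken by gene name from the table of counts, which holds 7126 genes and other features, and all 31 were found there once and passed the filter on low counts. By role they divide into 6 cytosolic Hsp70s, 3 Hsp70 exchange factors, 3 J-domain proteins, 2 Hsp90s, 8 Hsp90 co-chaperones, 4 proteins that handle aggregates and 5 proteins of the mitochondrial matrix.

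Hsp70 chaperones bind exposed stretches of unfolded protein and are driven through their ATP cycle by J-domain proteins, which start hydrolysis, and by exchange factors, which release ADP. Hsp90 acts on later folding steps with the help of co-chaperones, and the disaggregase Hsp104 extracts chains from aggregates and hands them to Hsp70. Many of these genes are controlled by the transcription factor Hsf1, which binds heat shock elements, and some also by Msn2 and Msn4, which bind stress response elements. Several come as pairs of related genes, of which one is made at all times and the other mainly under stress.

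Poly(A) RNA of haploid yeast in the BY4741 background was sequenced in 12 libraries, 3 for each of 4 groups. All cells were MATa and carried his3delta1, ura3delta0, leu2delta0, lys2delta0, crz1delta::LEU2 and a HYG-TEFp-GFP(Y66F) cassette on chromosome VI. The strain crz1cnb1 carried cnb1delta::KanMx in addition, so that both strains were without Crz1, a transcription factor switched on by the phosphatase calcineurin, and in crz1cnb1 calcineurin had no regulatory subunit either. Samples were taken at 0 h, before any KCl, and once the cells had grown for 48 h with 400 mM KCl, in synthetic medium with ammonium chloride, with cultures diluted every 12 h to stay in logarithmic growth. The comparisons ask how a long salt stress changes expression without Crz1, and how much of that change needs calcineurin. There was no strain with an intact CRZ1 gene among these samples, and no untreated culture at 48 h, so that the KCl change and 48 h of culture cannot be told apart. Whether replicates came from separate cultures is not stated in the labels, and p-values therefore measure only the spread between these samples.

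Library totals were 21305485 to 21599279 counts, and a count of 0 allowed at most 0.139 to 0.141 CPM (counts scaled to a common library total). Such limits cover counting error only. CNB1 had 14 to 68 counts in crz1cnb1 libraries against 1346 to 3139 in crz1 libraries, CRZ1 had 3 to 19 in all 12, and URA3 and LYS2 had 0. LEU2, which the crz1delta::LEU2 allele brings back, had 6973 to 12312 counts. HIS3, from which his3delta1 removes only an inner part, had 1663 to 1943 counts in the libraries numbered 2 and 505 to 978 in the others, and does not check the label. The alpha-factor receptor gene STE2, which MATa cells express, had 19391 to 34280 counts, while of the genes that MATalpha cells express MFALPHA1 and MFALPHA2 had 3 to 16, STE3 had 16 to 220 and SAG1 had 458 to 721. On the first principal component (35.8% of the variance) the KCl libraries numbered 1 and 3 lay at 13.8 to 22.9, but those numbered 2 lay at -10.6 in crz1 and -9.51 in crz1cnb1, among the 0 h libraries (-14.01 to -3.69). Both stand apart from the other KCl libraries, and results that rest on them are given with and without them. Libraries of the same number deviated together from their group means (r from 0.320 to 0.912), so that each KCl library was also read against the 0 h library of its own number, as a pair.

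Read pair by pair, the chaperone genes split by replicate number. In both strains 11 of the 31 genes were higher in KCl in pairs 1 and 3 and lower in pair 2, which is 35.5% of them against 6.54% of the 6302 genes measured in all libraries. These 11 were SSA1, SSA4, SSE2, HSP82, STI1, AHA1, HCH1, HSP104, HSP42, HSP60 and HSP78. The mirror image, lower in pairs 1 and 3 and higher in pair 2, was seen in SSE1 alone, which is 3.23% of the genes against 7.36% of all genes. None of the 31 was higher in all 6 pairs (11.3% of all genes were), and APJ1, BTN2 and CUR1 were lower in all 6, 9.68% against 8.06%.

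The median log2 change over the 31 genes was 0.02, -0.33 and 0.29 in the crz1 pairs numbered 1, 2 and 3, and 0.10, -0.29 and 0.15 in the crz1cnb1 pairs. Over all genes these medians lay between 0.00 and 0.05. In pair 2 the number of chaperone genes that were higher in KCl was 7 of 31 in crz1 and 5 of 31 in crz1cnb1. The libraries at both ends of that pair contributed. Of the 3 crz1 libraries at 0 h, number 2 was the highest for 21 of the 31 genes (32.8% of all genes), and of the 3 in KCl it was the lowest for 16 (38.6% of all genes). In crz1cnb1 the same counts were 18 (30.1%) and 18 (37.9%). The 0 h library numbered 3 was the lowest of its group for 20 of the 31 genes in each strain. The shares of all genes were 43.4% in crz1 and 40.5% in crz1cnb1, and these low levels enter the changes of pair 3. A list of 14 general stress genes controlled by Msn2 and Msn4, among them HSP12 and TSL1, was read in the same way. Its medians were 1.69, -0.01 and 1.91 in crz1 and 1.22, -0.20 and 1.998 in crz1cnb1. By these medians the same pairs stood apart there, though not in every gene. In pair 2, 7 of the 14 were higher in KCl in crz1 and 3 in crz1cnb1, and HSP12 was higher in both (2.43 and 1.66). What sets the libraries numbered 2, or the 0 h libraries numbered 3, apart was not tested.

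**Figure D1:**
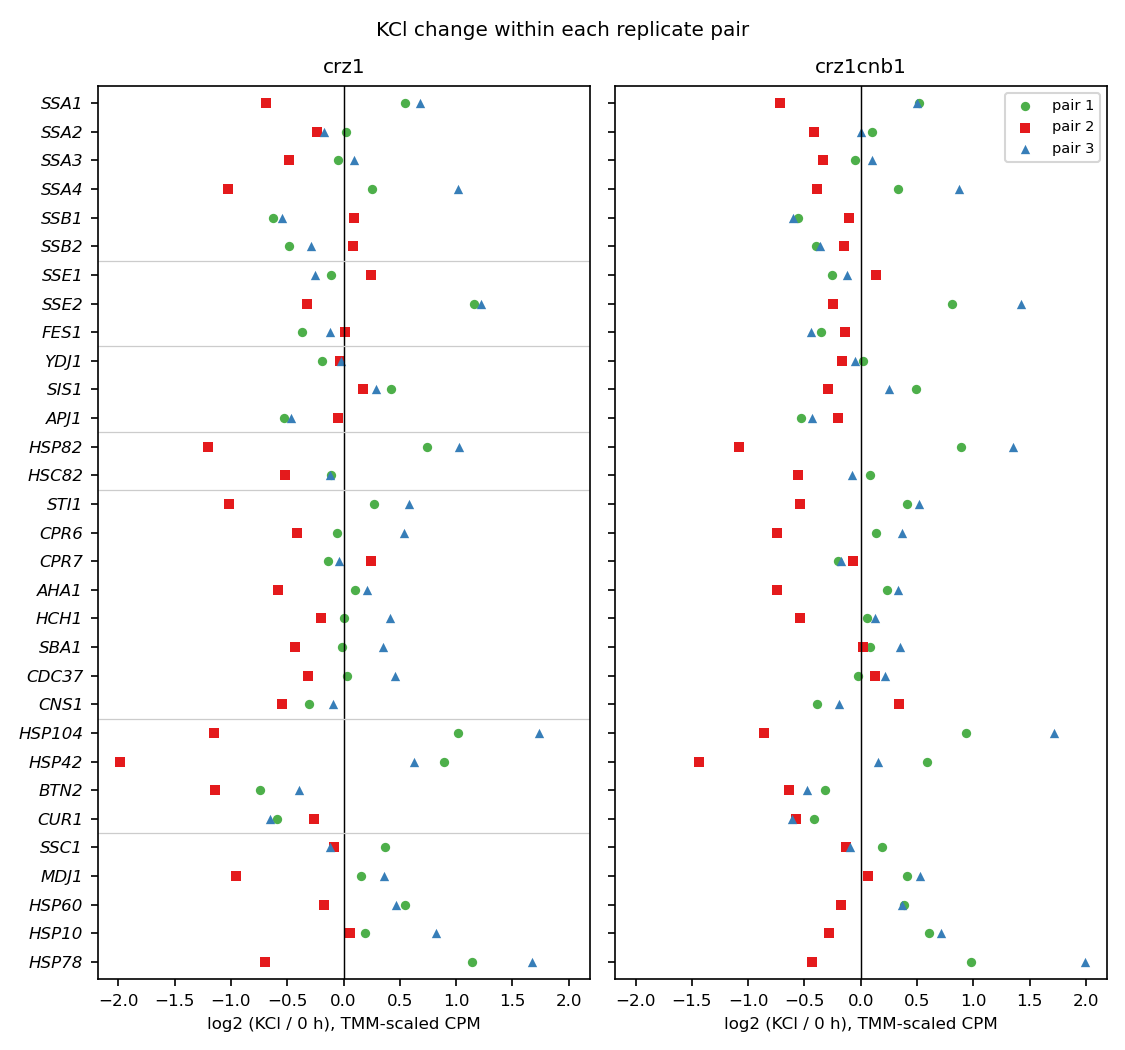
Log2 ratio of the KCl library to the 0 h library of the same replicate number (x axis, TMM-scaled CPM) for each of the 31 chaperone genes (y axis, grouped by role), in crz1 (left) and crz1cnb1 (right). In HSP104, HSP78, HSP82, HSP42, SSE2 and SSA1 the red squares of pair 2 lie left of 0 and the points of pairs 1 and 3 right of it, in both strains.

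Tested over all 12 libraries with edgeR, 0 of the 31 genes passed an adjusted p of 0.05 for KCl against 0 h in crz1, where 0.571% of 6309 genes did, and 0 in crz1cnb1, where 0.586% did. At an unadjusted p under 0.05 there were 3 and 1, and DESeq2 also called 0 in each strain, with 3 and 3 at an unadjusted p under 0.05. The share of all genes at the unadjusted threshold is not given, here or for the strain comparisons below, so such counts are not read as a result. For the response averaged over both strains 1 of the 31 was called, CUR1, against 3.77% of all genes. With the replicate number as a block, which removes the differences that libraries of one number share, the counts were 1 in crz1 (BTN2; 4.82% of all genes), 1 in crz1cnb1 (CUR1; 4.98%) and 5 for the average (19.1%). All 5 fell, where 8.45% of all genes did, and they were CUR1, BTN2, APJ1, SSB1 and FES1.

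Without the libraries numbered 2 the fit called 3 of the 31 for the average, all of them higher, where 5.01% of all genes were called. They were SSE2, HSP78 and HSP104. With the block added to that fit, a combination chosen after seeing the data, 13 of the 31 rose (23.1% of all genes) and 7 fell (21.5% of all genes). Those that rose were SSA1, SSA4, SSE2, SIS1, HSP82, STI1, AHA1, HSP104, HSP42, MDJ1, HSP60, HSP10 and HSP78, and those that fell were SSB1, SSB2, FES1, APJ1, CNS1, BTN2 and CUR1. When the libraries numbered 1 or those numbered 3 were left out instead, 0 of the 31 were called, and 26 and 56 genes of all were.

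**Figure D2:**
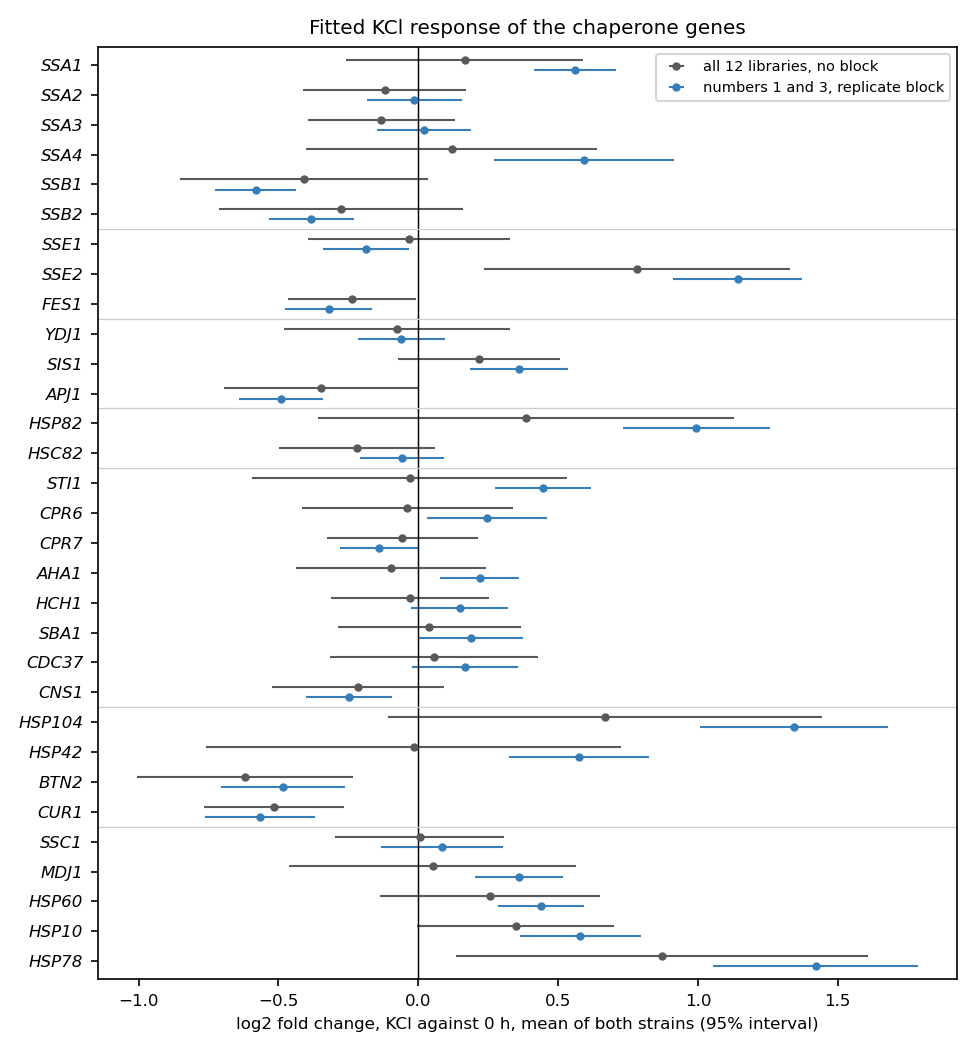
Fitted log2 fold change of KCl against 0 h averaged over both strains (x axis; points, with 95% intervals) for each chaperone gene (y axis), from all 12 libraries without a block (grey) and from numbers 1 and 3 with the replicate block (blue). For HSP104 the estimate is 0.67 in grey and 1.34 in blue, while for CUR1 both lie near -0.5. The blue fit was chosen after seeing the data.

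The upstream sequences of the genes that shared the pair pattern are shown because these genes moved together. A heat shock element was searched for as 3 alternating units, TTCNNGAANNTTC or GAANNTTCNNGAA, in the 500 bases before the start codon, in RefSeq's R64 sequence. The forms are reverse complements of each other, so that both strands were searched. It was found before 1.48% of 6000 protein-coding genes and before 13 of the 31 chaperone genes (41.9%), of which 7 belonged to the 11 with the pair pattern (63.6%) and 6 to the other 20 (30%). One match for each of these 7 genes is given first, followed by BTN2, which was lower in all 6 pairs, SIS1, whose site has the longest run of units, and SSE1, with the mirror pattern. Capitals mark the units, and each sequence is written on the strand of its gene.
HSP104 (chrXII:88309-88350, + strand): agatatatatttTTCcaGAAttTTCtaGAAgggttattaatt
HSP78 (chrIV:974461-974502, - strand): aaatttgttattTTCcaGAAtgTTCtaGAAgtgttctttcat
HSP42 (chrIV:806366-806407, + strand): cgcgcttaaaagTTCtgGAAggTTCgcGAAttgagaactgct
SSA1 (chrI:141766-141807, - strand): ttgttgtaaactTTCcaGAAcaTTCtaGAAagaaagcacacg
STI1 (chrXV:380825-380861, + strand): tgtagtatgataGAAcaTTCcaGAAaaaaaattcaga
AHA1 (chrIV:892562-892598, + strand): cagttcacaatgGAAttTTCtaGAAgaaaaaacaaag
HSP60 (chrXII:665188-665224, - strand): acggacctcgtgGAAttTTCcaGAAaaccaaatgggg
BTN2 (chrVII:772098-772139, + strand): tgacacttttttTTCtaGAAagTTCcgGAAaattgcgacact
SIS1 (chrXIV:619875-619921, - strand): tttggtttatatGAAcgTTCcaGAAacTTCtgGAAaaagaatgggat
SSE1 (chrXVI:352437-352473, - strand): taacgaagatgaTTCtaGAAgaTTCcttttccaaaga

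The stress response element AGGGG, searched on both strands as AGGGG or CCCCT, was found before 34.1% of all genes and 11 of the 31 (35.5%). It lay before 7 of the 11 genes with the pair pattern (63.6%), namely SSA1, SSA4, SSE2, HSP82, HSP104, HSP42 and HSP78, and before 4 of the other 20 (20%). SSA1, HSP104, HSP42 and HSP78 had both elements, with 2 copies of the shorter one before SSA1 and 3 before each of the others. The 2-unit forms GAANNTTC or TTCNNGAA, which lie inside every 3-unit match, were found before 35.2% of all genes, 25 of the 31 and all 11 with the pair pattern. HSP82, SSE2, SSA4 and HCH1 had no 3-unit match in these windows, which says only that those letters are not there. The 11 genes and the other 20 were separated by their pair values in these data, and their shares of either element were not tested against each other. A match is a description of sequence, and binding was not measured.

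Measured per length in TPM (counts scaled to gene length and then to a common total), the 31 genes together held 0.746 to 0.958% of each library. The group means were 0.850 ± 0.094 (SD, n = 3) and 0.822 ± 0.029% in crz1 at 0 h and in KCl, and 0.801 ± 0.079 and 0.814 ± 0.038% in crz1cnb1, and the groups overlap. In crz1cnb1 the direction depends on the scaling. The median change of all genes there was 0.16 on log2(TPM + 1), and the sum fell on TMM-scaled levels. The ribosome-bound Hsp70s SSB1 and SSB2 stood highest with mean levels of 1624 and 1294 TPM over the 12 libraries, followed by SSA2 (772 TPM), HSC82 (594 TPM), HSP10 (531 TPM) and SSE1 (503 TPM). At the other end were SSE2 (10.3 TPM), BTN2 (8.41 TPM) and HSP42 (6.59 TPM). The ranges over libraries of neighbours in this order overlap, for example 353.5 to 698 TPM for SSE1 and 260.0 to 643 TPM for SBA1. The highest library over the lowest was 6.84 for HSP78, 6.24 for HSP104, 5.50 for HSP82 and 4.67 for HSP42, against 1.52 for SSB2 and 1.54 for SSA2.

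**Figure D3:**
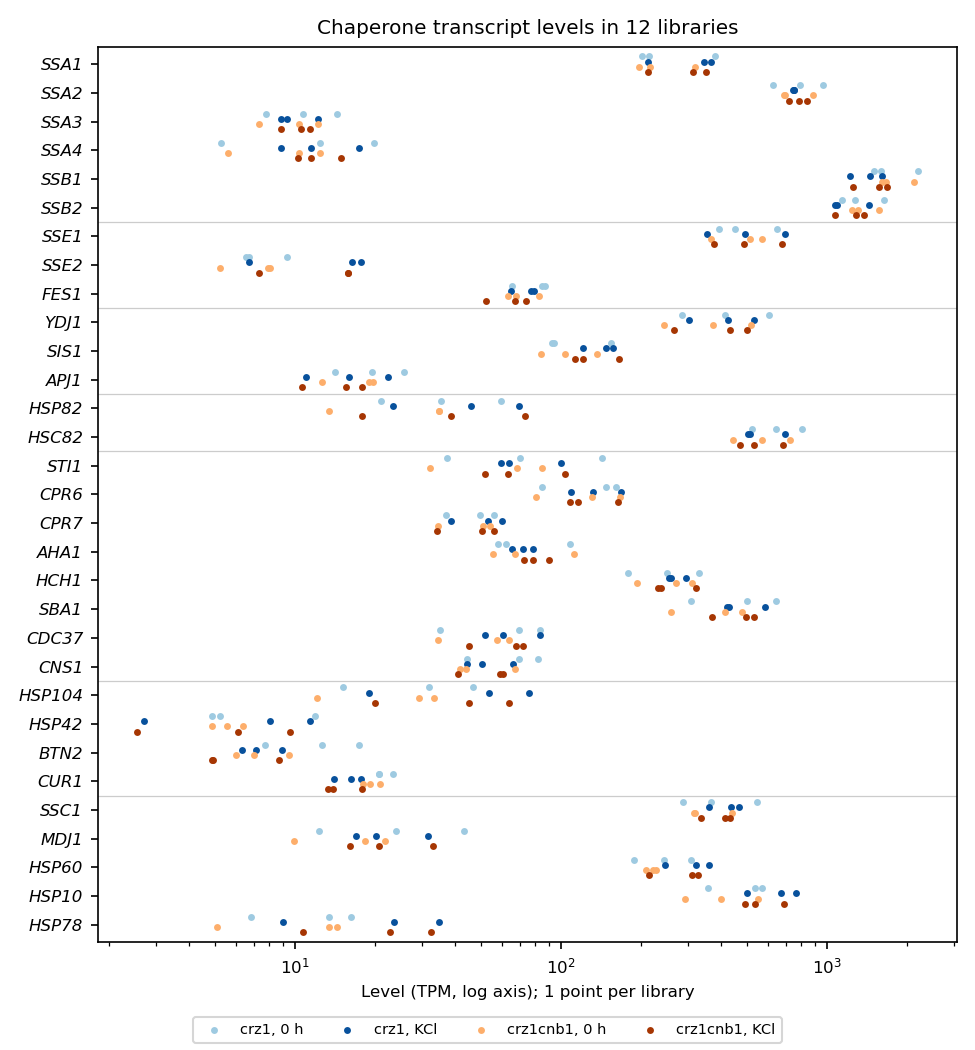
Level of each chaperone gene (x axis, TPM, log axis) in every library, coloured by group, with genes on the y axis grouped by role. SSB1 and SSB2 lie at 1074 TPM or more in all libraries, and HSP42 between 2.54 and 11.9 TPM.

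Among the cytosolic Hsp70s SSB1 fell in the fit with the replicate block, and the other 5 were not called in it. SSB1 (YDL229W, chrIV:44065-45906), whose protein binds chains as they leave the ribosome, had TMM-scaled levels of 3765, 2962 and 5789.8 CPM in crz1 libraries 1, 2 and 3 at 0 h and 2445, 3168 and 3962 CPM in KCl. In crz1cnb1 it had 3920.4, 3858 and 6107 CPM at 0 h and 2669.6, 3599 and 4026 CPM in KCl. The groups overlap, with number 3 the highest in each of them, and SSB1 was lower in KCl in 5 of 6 pairs, crz1 pair 2 being the exception. Its averaged log2 change was -0.41 ± 0.21 (SE; edgeR adjusted p = 0.352), and with the replicate block it fell by 0.39 ± 0.11 (adjusted p = 0.0297). On numbers 1 and 3 with the block SSB1 fell by 0.58 ± 0.06 (adjusted p = 2.45e-04). SSB2, which encodes a nearly identical protein, had pair changes of -0.48, 0.09 and -0.29 in crz1 and -0.40, -0.15 and -0.36 in crz1cnb1, and its blocked change of -0.27 ± 0.09 was not called (adjusted p = 0.0654), whereas on numbers 1 and 3 with the block SSB2 fell by 0.38 ± 0.07 (adjusted p = 0.0021). Their coding sequences are 97.6% identical and 43.2% of the 50-mers of each occur in the other, so that reads could be split between them and the separate values are uncertain.

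The soluble Hsp70s SSA1 to SSA4 fold and transport proteins of the cytosol, with SSA1 and SSA2 made at all times and SSA3 and SSA4 mainly under stress. SSA1 changed by 0.54, -0.69 and 0.68 on the log2 scale in the crz1 pairs and by 0.52, -0.71 and 0.50 in the crz1cnb1 pairs, and SSA4 by 0.25, -1.03 and 1.02 and by 0.33, -0.39 and 0.87. SSA2 stayed between -0.42 and 0.10 in all 6 pairs and SSA3 between -0.48 and 0.10. The ratio of SSA1 to SSA2 in TPM had log2 changes of 0.52, -0.45 and 0.85 in crz1 and 0.41, -0.30 and 0.50 in crz1cnb1. SSA1 and SSA2 are 96.8% identical, and 57.9% and 58.2% of their 50-mers occur elsewhere in the genome, so that a part of each count may belong to the other. None of the 4 was called by edgeR without or with the block, and their blocked averages lay between -0.12 and 0.16. On numbers 1 and 3 with the block, a fit chosen after seeing the data, SSA1 rose by 0.56 ± 0.07 (adjusted p = 3.09e-04) and SSA4 by 0.59 ± 0.14 (adjusted p = 0.00951).

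The 3 exchange factors had unlike pair changes. SSE2 (YBR169C, chrII:573915-575996), the stress-linked copy of the Hsp110 pair, had 17.9, 20.8 and 19.5 CPM in crz1 at 0 h and 40.1, 16.6 and 45.3 CPM in KCl. In crz1cnb1 its levels were 21.7, 21.1 and 17.01 CPM at 0 h and 38.0, 17.7 and 45.6 CPM in KCl. The 0 h libraries lay close together, and the KCl libraries numbered 1 and 3 were well above them while those numbered 2 were within or below their range. The averaged log2 change was 0.78 ± 0.25 (edgeR adjusted p = 0.122; 0.0555 with the block), DESeq2 called it at an adjusted p of 0.0444, and without the libraries numbered 2 it was 1.15 (adjusted p = 0.00506). SSE2 was the 1 gene of the 31 called within a strain in that reduced fit, in crz1 at an adjusted p of 0.0471. That fit called 61 genes of all in crz1 and 29 in crz1cnb1.

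SSE1, its constitutive partner, had 1207, 1453 and 1168 CPM at 0 h and 1119.6, 1722 and 979 CPM in KCl in crz1, and 1413, 1491 and 1192 CPM and then 1181, 1641 and 1093 CPM in crz1cnb1. Number 2 was the highest in all 4 groups, and the groups overlap. The 2 coding sequences are 72.6% identical and share no 50-mer, so their reads can be told apart. The ratio of SSE2 to SSE1 in TPM was 0.0141 to 0.0167 at 0 h over both strains, and its log2 change was 1.27, -0.57 and 1.47 in crz1 and 1.07, -0.39 and 1.55 in crz1cnb1. FES1 (YBR101C), the third exchange factor, which also frees substrate from Hsp70, had 95.1, 81.6 and 81.6 CPM at 0 h and 73.6, 82.3 and 75.1 CPM in KCl in crz1. In crz1cnb1 it had 95.5, 74.5 and 86.2 CPM and then 74.7, 67.8 and 63.6 CPM. It was lower in KCl in 5 of 6 pairs with overlapping groups, and with the replicate block its average fell by 0.23 ± 0.07 (adjusted p = 0.0486), against an adjusted p of 0.283 without it.

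Of the J-domain proteins, APJ1 (YNL077W), a low-abundance partner of Hsp70, had 39.6, 43.5 and 32.0 CPM at 0 h and 27.6, 42.1 and 23.1 CPM in KCl in crz1, and 41.3, 37.9 and 31.4 CPM and then 28.6, 33.0 and 23.3 CPM in crz1cnb1. Each KCl library was below its own 0 h partner, although the groups overlap. The averaged log2 change was -0.35 ± 0.16 (edgeR adjusted p = 0.309), and with the block APJ1 fell by 0.36 ± 0.09 (adjusted p = 0.0179), or by 0.49 ± 0.07 on numbers 1 and 3 (adjusted p = 6.63e-04). SIS1, an essential J-domain protein that Hsf1 controls, had 128, 175 and 140.0 CPM at 0 h and 171, 197 and 171 CPM in KCl in crz1, and 145, 183 and 139 CPM and then 203, 149 and 166 CPM in crz1cnb1. It was higher in KCl in 5 of 6 pairs, with crz1cnb1 pair 2 the exception, and its averaged change of 0.22 ± 0.13 was not called (adjusted p = 0.473; 0.142 with the block). On numbers 1 and 3 it was 0.36 ± 0.13 without the block (adjusted p = 0.156) and rose by 0.36 ± 0.08 with it (adjusted p = 0.00532). YDJ1, the main J-domain partner of the soluble Hsp70s, had 651, 796 and 503 CPM at 0 h and 569, 778 and 495 CPM in KCl in crz1, and 606, 804 and 471 CPM and then 615, 718 and 454 CPM in crz1cnb1. Its levels followed the replicate number more than the treatment, and the averaged change was -0.08 ± 0.19.

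The Hsp90 pair differed in level and in how it varied. HSC82 (YMR186W), the constitutive copy, had 1742, 1828 and 1581 CPM at 0 h and 1614, 1273 and 1455 CPM in KCl in crz1, and 1594, 1934 and 1471 CPM and then 1684, 1311 and 1392 CPM in crz1cnb1. HSP82 (YPL240C, chrXVI:96496-98625), the heat-inducible copy, had 96.4, 136 and 63.98 CPM at 0 h and 161, 58.8 and 130.3 CPM in KCl in crz1. In crz1cnb1 HSP82 had 97.7, 93.2 and 44.5 CPM at 0 h and 181, 44.1 and 114 CPM in KCl. The groups overlap for both genes, and for HSP82 the KCl library numbered 2 was the lowest in its strain. HSP82 changed by 0.74, -1.21 and 1.03 on the log2 scale in the crz1 pairs and by 0.89, -1.08 and 1.35 in the crz1cnb1 pairs, while HSC82 lay between -0.12 and 0.08 in pairs 1 and 3 and at -0.52 and -0.56 in pair 2.

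The ratio of HSP82 to HSC82 in TPM ran from 0.0301 to 0.107 over the 12 libraries. Averaged over strains the log2 changes were 0.38 ± 0.34 for HSP82 (edgeR adjusted p = 0.647) and -0.22 ± 0.13 for HSC82 (adjusted p = 0.452), and neither passed in the blocked fit (adjusted p = 0.558 and 0.13). On numbers 1 and 3 with the block HSP82 rose by 0.99 ± 0.12 (adjusted p = 3.09e-04), and HSC82 stood at -0.06 ± 0.07 (adjusted p = 0.502). The coding sequences are 92.4% identical, but only 6.39% of the 50-mers of HSP82 occur elsewhere, all of them in HSC82.

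**Figure D4:**
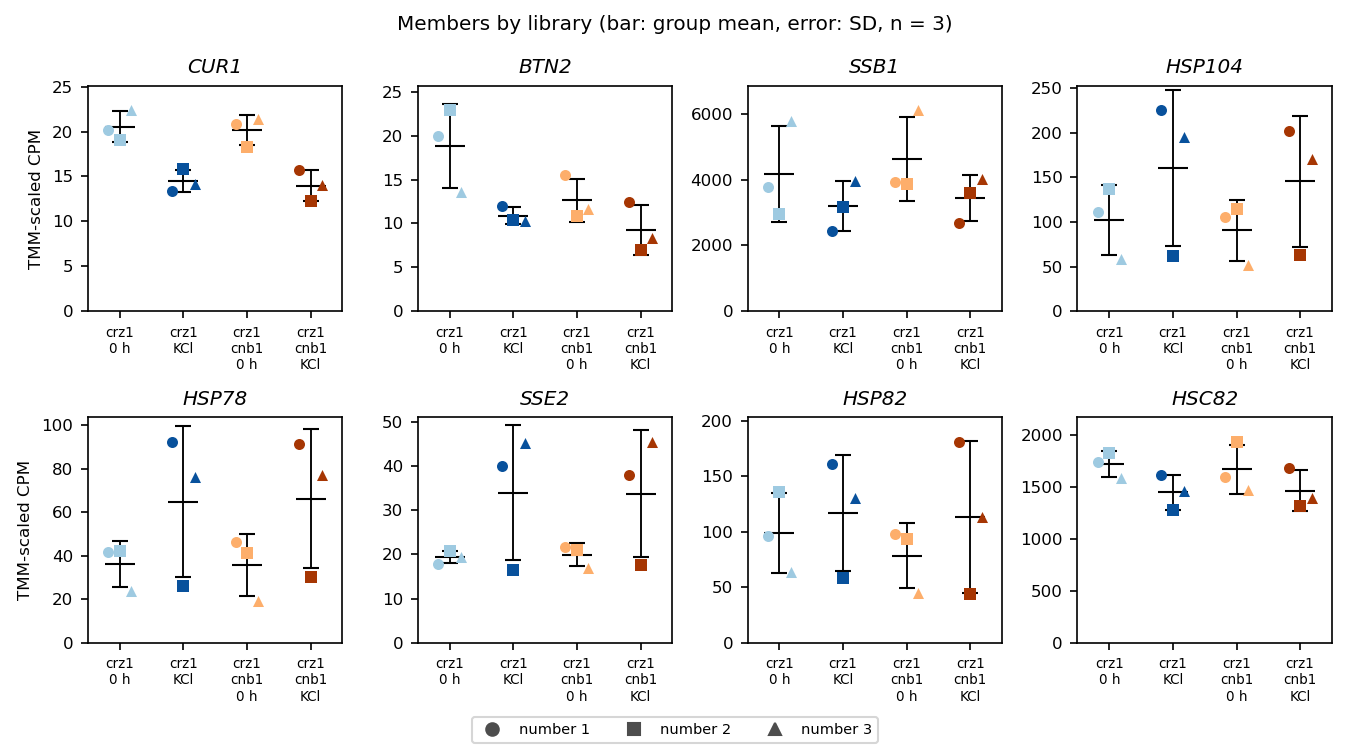
TMM-scaled CPM (y axis, from 0) of 8 chaperone genes in each library, by group (x axis) and replicate number (marker), with the group mean and SD (n = 3). CUR1 lies lower in all 6 KCl libraries than in all 6 at 0 h, whereas for HSP104, HSP78, SSE2 and HSP82 the KCl library numbered 2 lies far below the other 2 of its group.

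The 8 Hsp90 co-chaperones included 3 with the pair pattern (STI1, AHA1 and HCH1), and none of the 8 was called in any comparison over all 12 libraries, without or with the block. SBA1, the p23 homologue that holds Hsp90 in its closed state, was the most abundant and had 419, 448 and 286 CPM at 0 h and 415, 332 and 364 CPM in KCl in crz1. In crz1cnb1 it had 356, 394 and 265 CPM and then 376, 401 and 336 CPM, and the groups overlap. CNS1, an essential co-chaperone, had the largest averaged change of the class, -0.21 ± 0.14 (edgeR adjusted p = 0.509; 0.155 with the block; 0.0168 with the block on numbers 1 and 3). Its levels were 103, 102 and 73.0 CPM at 0 h and 83.2, 69.6 and 68.6 CPM in KCl in crz1, and 103, 64.3 and 75.5 CPM and then 78.9, 81.5 and 65.9 CPM in crz1cnb1. STI1, which bridges Hsp70 and Hsp90, moved most between pairs, with log2 changes of 0.27, -1.02 and 0.58 in crz1 and 0.41, -0.54 and 0.51 in crz1cnb1. Its averaged change was -0.03 over all 12 libraries (adjusted p = 0.97), and on numbers 1 and 3 with the block it rose by 0.45 ± 0.08 (adjusted p = 0.00175). AHA1, which speeds the ATP hydrolysis of Hsp90, and its relative HCH1 had the same order of signs, with changes from -0.75 to 0.33 and from -0.54 to 0.41. CPR6 and CPR7, both prolyl isomerases, ranged from -0.75 to 0.54 and from -0.21 to 0.24. CDC37, which brings kinases to Hsp90, ranged from -0.32 to 0.46.

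The aggregate-handling proteins held the 1 gene called in the averaged response over all 12 libraries, CUR1, and the widest swings between pairs. CUR1 (YPR158W, chrXVI:843262-844020), which with its relative Btn2 sorts misfolded proteins to deposits in the cell, had 20.2, 19.0 and 22.4 CPM at 0 h and 13.4, 15.9 and 14.2 CPM in KCl in crz1. In crz1cnb1 its levels were 20.9, 18.3 and 21.4 CPM at 0 h and 15.7, 12.2 and 14 CPM in KCl. The KCl and 0 h libraries do not overlap in either strain. The KCl libraries numbered 2 were below the 0 h libraries too, as the highest KCl library in crz1 and the lowest in crz1cnb1. The changes in pair 2 were -0.26 and -0.58. Averaged over strains CUR1 fell by 0.52 ± 0.12 (edgeR adjusted p = 0.0254), and with the block by 0.51 ± 0.09 (adjusted p = 0.00332). In single strains the changes were -0.50 ± 0.16 in crz1 (adjusted p = 0.289, or 0.0501 in the blocked fit) and -0.53 ± 0.16 in crz1cnb1 (adjusted p = 0.241; 0.0395 with the block). The averaged change ran from -0.57 to -0.39 over 24 alternative settings, with adjusted p from 6.67e-04 to 0.399 and a call in 11 of them. Leaving out 1 library at a time ended the call in 7 of 12 cases, for crz1 control 3, crz1 KCl 1 and 3, crz1cnb1 control 1 and 3 and crz1cnb1 KCl 2 and 3, at adjusted p between 0.0522 and 0.0837. Without all libraries numbered 2 CUR1 was at -0.57 ± 0.14 (adjusted p = 0.0511), and with the block in addition it fell by 0.57 ± 0.09 (adjusted p = 0.00111).

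BTN2 (YGR142W, chrVII:772454-773686) had 19.98, 22.9 and 13.5 CPM at 0 h and 12.0, 10.4 and 10.3 CPM in KCl in crz1, and 15.5, 10.9 and 11.6 CPM and then 12.4, 7.0 and 8.32 CPM in crz1cnb1. The groups do not overlap in crz1 and do in crz1cnb1, where the 0 h levels were lower, and every KCl library was below its partner. Its averaged log2 change was -0.62 ± 0.18 (edgeR adjusted p = 0.0804), and with the block it fell by 0.62 ± 0.14 (adjusted p = 0.00936). Of 24 alternative settings BTN2 was called for the average in 5. Over the 24 its change ran from -0.76 to -0.45, with adjusted p from 0.00421 to 0.382. In crz1 alone it fell by 0.79 ± 0.19 with the block (adjusted p = 0.0358), against -0.46 ± 0.19 in crz1cnb1 (adjusted p = 0.183), and the difference between the strains was not called.

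HSP104 (YLL026W, chrXII:88623-91349), the disaggregase, had 111, 136 and 58.8 CPM at 0 h and 225, 61.5 and 195 CPM in KCl in crz1. In crz1cnb1 it had 106, 114 and 51.7 CPM at 0 h and 202, 63.1 and 171 CPM in KCl. The KCl libraries numbered 1 and 3 were above all 0 h libraries and those numbered 2 were below 4 of the 6. The pair changes of 1.02, -1.15 and 1.73 in crz1 and 0.94, -0.86 and 1.72 in crz1cnb1 were nearly the same in both strains. The averaged change was 0.67 ± 0.36 (edgeR adjusted p = 0.393; 0.31 with the block), and without the libraries numbered 2 it was 1.27 (adjusted p = 0.0364). HSP42, a small heat shock protein that gathers misfolded proteins into aggregates, had the widest range of pair changes together with HSP104 (2.88 on the log2 scale), with 0.90, -1.98 and 0.62 in crz1 and 0.59, -1.44 and 0.15 in crz1cnb1. It is named here after its values were seen. HSP42 had 14, 3.62 and 12.1 CPM in crz1 KCl libraries and 12.5, 3.32 and 9.54 CPM in those of crz1cnb1, against 7.52 to 14.3 CPM at 0 h, and its averaged change was -0.02 ± 0.34. On numbers 1 and 3 that change was 0.57 ± 0.15 without the block (adjusted p = 0.0706), and HSP42 rose by 0.57 ± 0.11 with it (adjusted p = 0.0033).

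The mitochondrial matrix class was the one whose members all had a positive averaged change, with a median of 0.26 on the log2 scale against -0.03 over the 31 genes and 0.02 over all genes, although with DESeq2 size factors SSC1 was at -0.01. In none of them was the change called without or with the block, and in both strains 5 of the 5 were higher in KCl in pair 1, 1 in pair 2 and 4 in pair 3, where 50.5 to 54.5% of all genes were. HSP78 (YDR258C, chrIV:971808-974243), the matrix relative of Hsp104, had the largest averaged change of the 31 genes. Its levels were 41.9, 42.3 and 23.8 CPM at 0 h and 92.4, 26.0 and 76.2 CPM in KCl in crz1, and 46.3, 41 and 19.4 CPM and then 91.3, 30.3 and 76.9 CPM in crz1cnb1. The KCl libraries numbered 1 and 3 were above all 0 h libraries, and those numbered 2 within their range. The averaged change was 0.87 ± 0.34 (edgeR adjusted p = 0.213; 0.127 with the block), and without the libraries numbered 2 it was 1.35 (adjusted p = 0.0355).

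HSP10 and HSP60 encode the lid and the barrel of the matrix chaperonin. HSP10, the more abundant transcript per length, had 235, 184 and 164 CPM at 0 h and 268, 191 and 288 CPM in KCl in crz1, and 169, 222 and 147 CPM and then 257, 183 and 240.3 CPM in crz1cnb1. It was higher in KCl in 5 of 6 pairs, and its averaged change was 0.35 ± 0.16 (edgeR adjusted p = 0.316; 0.107 with the block). On numbers 1 and 3 it was 0.57 ± 0.16 without the block (adjusted p = 0.0805), and HSP10 rose by 0.58 ± 0.10 with it (adjusted p = 0.00158). HSP60 changed by 0.54, -0.18 and 0.46 in the crz1 pairs and by 0.38, -0.18 and 0.36 in the crz1cnb1 pairs. Its averaged change was 0.26 over all 12 libraries (adjusted p = 0.539), and on numbers 1 and 3 with the block it rose by 0.44 ± 0.07 (adjusted p = 0.00117). The ratio of HSP60 to HSP10 in TPM was 0.530 ± 0.182 and 0.482 ± 0.058 in crz1 and 0.569 ± 0.189 and 0.499 ± 0.097 in crz1cnb1, at 0 h and in KCl, and did not differ beyond the spread. SSC1, the matrix Hsp70 that also pulls in imported proteins, stayed between -0.13 and 0.37 in the 6 pairs, and MDJ1, its J-domain partner, ranged from -0.95 to 0.53. MDJ1 was at 0.05 for the average over all 12 libraries (adjusted p = 0.942) and rose by 0.36 ± 0.07 on numbers 1 and 3 with the block (adjusted p = 0.00338).

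The strains were then compared directly. Of the 31 genes 0 differed between crz1 and crz1cnb1 at 0 h, where 0.0159% of 6309 genes did, and 0 in KCl, where 0.0476% did (0.0793% and 0.0634% with the replicate block, again with 0 chaperone genes). The difference between the KCl responses of the strains was called for 0 of the 31, and for 0% of all genes without and 0% with the block. At an unadjusted p under 0.05 there was 1 gene at 0 h, 0 in KCl and 0 for the difference of responses, and DESeq2 called 0 in each of the 3, with 1, 0 and 0 at an unadjusted p under 0.05. The 1 gene was BTN2, higher in crz1 at 0 h by 0.57 ± 0.25 (edgeR adjusted p = 1). Its crz1 library was above the crz1cnb1 library of the same number in all 3 pairs.

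With a block for each replicate number within 0 h and within KCl, libraries of one number and treatment are set against each other and the standard errors for the 31 genes shrink to between 0.065 and 0.167 at 0 h and between 0.065 and 0.174 in KCl. No chaperone gene was called in that fit either, although it called 21 and 26 genes of all. The estimates ran from -0.18 to 0.57 at 0 h and from -0.20 to 0.26 in KCl, and the 95% intervals of all 31 stayed between -0.39 and 0.94 and between -0.38 and 0.65. At an unadjusted p under 0.05 there were 6 genes at 0 h (HSP82, AHA1, HCH1, HSP104, BTN2 and MDJ1) and 1 in KCl (AHA1), with adjusted p of at least 0.272. The share of all genes under that unadjusted threshold is not given, so the 6 are not read as an excess. At 0 h, for example, the estimate was 0.17 for HSP104 (95% interval 0.01 to 0.33) and -0.17 for AHA1 (-0.33 to -0.01). These intervals are not adjusted for the number of genes tested, and neither gene is read as different between the strains.

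**Figure D5:**
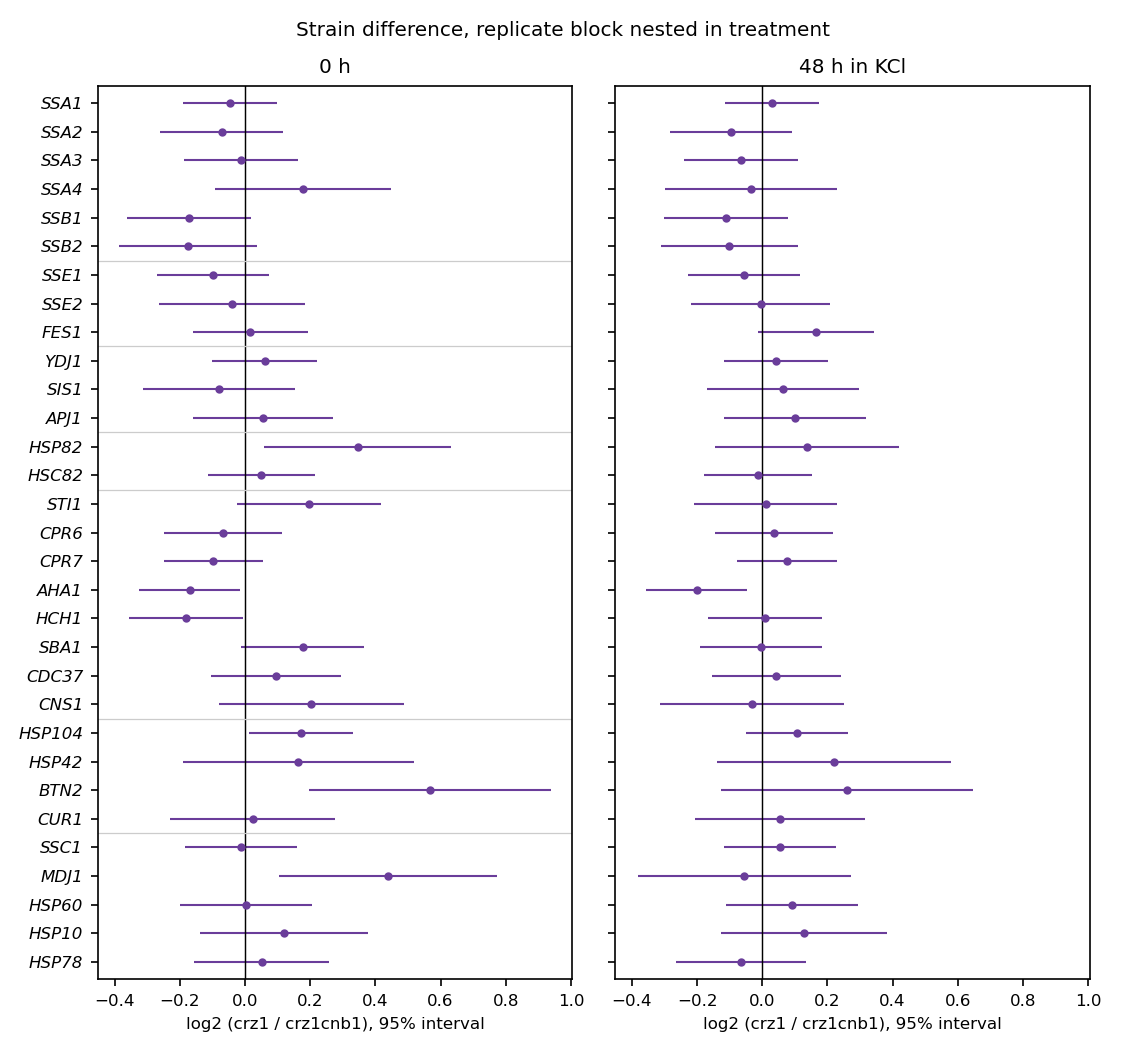
Log2 ratio of crz1 to crz1cnb1 (x axis; points, with 95% intervals) for each chaperone gene (y axis), at 0 h (left) and after 48 h in KCl (right), fitted with a block for each replicate number within each treatment. BTN2 at 0 h has the largest estimate, 0.57, and no gene passed the adjusted threshold in either panel.

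Of 52 other folding genes and regulators in 8 lists, 2 were called in the averaged response (3.85%, against 3.77% of all genes) and 7 with the block (13.5%, against 19.1%). Of 4 genes for other small heat shock and Hsp31 family proteins, 2 rose in the averaged response and 3 with the block, with a median of 1.08. HSP26, a small heat shock protein, rose by 1.06 ± 0.22 (edgeR adjusted p = 0.0185), with pair changes of 1.08, 0.04 and 1.52 in crz1 and 1.60, 0.17 and 1.99 in crz1cnb1, so that it was higher in KCl in all 6 pairs. HSP33 rose by 1.79 ± 0.41 (adjusted p = 0.0295) and HSP32 by 1.10 ± 0.23 with the block (adjusted p = 0.00852). Both are at 3 to 50 counts a library, and 76.4% and 100% of their 50-mers occur elsewhere in the genome, so their values are uncertain.

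Among 12 other mitochondrial folding and import genes 11 had a positive averaged change (10 with DESeq2 size factors and 12 with library totals alone), 0 were called, and with the block PAM16 rose by 0.34 ± 0.09 (adjusted p = 0.0262) and ZIM17 by 0.36 ± 0.11 (adjusted p = 0.0381), both of the import motor. All 8 subunits of the cytosolic chaperonin CCT had a negative change with a median of -0.12 (4 of 8 with library totals alone), and with the block CCT3 fell by 0.31 ± 0.09 (adjusted p = 0.0421). The 5 ribosome-associated genes were all negative as well (median -0.21; 3 of 5 with library totals alone), and 0 of them, of 6 prefoldin genes, of 8 other J-domain genes and of 4 other Hsp90 co-chaperones were called without or with the block. Of 5 regulators, HSF1, MSN2, MSN4 and MBF1 were not called, and SKN7 fell by 0.53 ± 0.14 with the block (adjusted p = 0.0269). Of the 14 general stress genes 7 were called in the averaged response (50%, against 3.77% of all genes), and all 7 rose. HSP12 rose by 2.65 ± 0.19 and was higher in KCl in all 6 pairs. With the block 9 were called (64.3%, against 19.1% of all genes), of which 8 rose and SOD2 fell.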

How the data were processed

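The authors deposited whole-number counts per gene and TPM in separate tables, as the file headers show, each with a column for every library. For featureCounts, DESeq2 and build R64 the source is the submitters' processing notes, which give no version of either tool. The aligner, the strand setting and what was done with multiply matching reads are not stated in those sources. Values of SSA1, SSA2, SSB1 and SSB2 are therefore uncertain. No other RefSeq gene overlaps a chaperone gene, but overlaps with counted features outside RefSeq were not checked. Deposited TPM equalled counts per coding length, scaled to the library.

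Counts were fitted with edgeR 4.0.16 (R 4.3.3) over all genes and all 12 libraries, with TMM scaling, filterByExpr by group (6309 genes), robust glmQLFit, glmQLFTest and Benjamini-Hochberg adjustment at 0.05. Errors are standard errors derived from the quasi-likelihood F statistic, and 95% intervals use its degrees of freedom. CPM values are TMM-scaled. Pair changes compare the KCl and 0 h libraries of one number in a strain, over the 6302 genes with counts in all 12.

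Replicate numbers pair the samples: deviations from group means correlated at 0.320 to 0.912 within a number (18 pairs of libraries) and at -0.791 to 0.385 across numbers (36 pairs). No shared day or batch is named in the labels. The common biological coefficient of variation was 0.223, and 0.132 with the replicate block.

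The 31 genes, the classes and the other lists were chosen with earlier results of these data known. All 31 are named; values per library are given for genes called without or with the block, for the largest averaged change and the highest TPM in each class, and for all genes of classes of 2 or 3. Of other genes at most 4 called ones per list are named. Alternatives were DESeq2 1.42.0, DESeq2 size factors, library totals, no filter, limma 3.58.1 on log2(TPM + 1) and log2(TPM + 0.1), the replicate block and the block nested in treatment, the 6 libraries compared alone, and left-out libraries. The code was tested on simulated counts.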

Additional observations from a re-analysis of the deposited data

How the results depend on the processing

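With 3 libraries per group, counting error is small and the spread between replicate numbers sets the precision. Of 744 comparisons of single-gene averages under another setting, 603 kept their direction and side of the threshold. In 33 the sign held and a call was gained, 13 lost a call, and 95 changed sign. All 13 losses were CUR1. Among the 95, AHA1, HSP42 and STI1 were each called in 1 setting. The median averaged change of all genes, 0.02 on the log2 scale with TMM scaling, was 0.13 with library totals and 0.11 and 0.12 on the TPM scales.

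Chaperone genes called for the average (1 in the fit reported first) were 0 with library totals, with limma on either TPM scale and without all libraries numbered 1 or 3, 3 with DESeq2 and without those numbered 2, 5 with the replicate block and without only the KCl libraries numbered 2, and 20 with the replicate block and number 2 left out. In crz1 and crz1cnb1 they were 1 and 1 with the block, 1 and 0 without number 2, 1 and 1 without its KCl libraries, and 15 and 16 with the block and number 2 left out. Genes of all called in crz1, crz1cnb1 and the average were 304, 314 and 1204 with the block, 104, 116 and 421 with DESeq2, 4, 0 and 26 without number 1, 9, 10 and 56 without number 3, 168, 137 and 649 without the KCl libraries numbered 2, and 1632, 1502 and 2815 with the block and number 2 left out; without number 2 crz1 had 61. Between strains at 0 h they were 2 with library totals, 5 with the block, 21 with the nested block, 7 with DESeq2, and 4 and 2 with limma (pseudocounts 1 and 0.1); in KCl they were 26 with the nested block, 8 with DESeq2 and 1 without each number. For the KCl average, genes of all called were 215 with library totals, and 178 and 177 with limma (pseudocounts 1 and 0.1). The fit reported first called 238 of 6309. The summed level in crz1cnb1 changed by -0.13 on TMM-scaled CPM per kb.

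Leaving out 1 library at a time gave 12 to 60 genes in crz1, 9 to 54 in crz1cnb1, 138 to 318 for the average (0 to 2 chaperone genes), 1 to 2 between strains at 0 h and 1 to 4 in KCl. The log2 change of HSP60/HSP10 in crz1cnb1 was -0.38 to 0.094 and that of HSP60/SSC1 -0.026 to 0.47. Averages that changed sign ran over -0.035 to 0.29 for SSA4, -0.17 to 0.046 for SSE1, -0.18 to 0.032 for YDJ1, -0.18 to 0.20 for STI1, -0.12 to 0.054 for CPR6, -0.16 to 0.037 for AHA1, -0.086 to 0.030 for HCH1, -0.043 to 0.10 for SBA1, -0.055 to 0.13 for CDC37, -0.21 to 0.18 for HSP42, -0.081 to 0.079 for SSC1 and -0.091 to 0.24 for MDJ1.

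Under the other settings averages changed sign as follows. With library totals SSE1 was 0.082, YDJ1 0.027, STI1 0.056, CPR6 0.058, CPR7 0.060, HCH1 0.075 and HSP42 0.092. With limma on log2(TPM + 1) and log2(TPM + 0.1) SSE1 was 0.051 and 0.051, YDJ1 0.037 and 0.037, STI1 0.14 and 0.15, CPR6 0.081 and 0.082, CPR7 0.047 and 0.047, AHA1 0.035 and 0.036 and HCH1 0.086 and 0.087. SSC1 was -0.013 with DESeq2, -0.014 with its size factors and -0.011 without a filter, and STI1 was 0.037 with the replicate block. Without number 1 SSA1 was -0.022, SSE1 0.028, SSC1 -0.12 and MDJ1 -0.10. Without number 3 SSA1 was -0.081, SSA4 -0.19, SSE1 0.017, SBA1 -0.094, CDC37 -0.055 and MDJ1 -0.081. Without number 2, and again with the block, SSA3 was 0.016 and 0.020, STI1 0.42 and 0.45, CPR6 0.22 and 0.25, AHA1 0.22 and 0.22, HCH1 0.14 and 0.15 and HSP42 0.57 and 0.57. Without its KCl libraries alone STI1 was 0.078, CPR6 0.10, HCH1 0.046, HSP42 0.37 and SSC1 -0.048. The cause of these changes was not tested. Leaving out number 2 with the block, or its KCl libraries alone, was chosen after seeing the data.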
